A study of Mus musculus with 8 samples.

Results

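The 49 genes described here, the proteasome subunits and activators by name, are all rows of a mouse expression table, out of 23234, whose gene symbol begins with Psm, a letter from a to g and a digit. They comprise 7 alpha ring genes, 4 structural and 3 constitutive catalytic beta ring genes, 3 immunoproteasome genes, 6 ATPases, 3 other base subunits and 8 lid subunits of the regulatory particle, 3 regulatory particle chaperones, 4 activators, 4 core chaperones, the PI31 gene Psmf1 and 2 tissue-specific core genes. The remaining row, Psmc3ip, matches by name alone: it encodes HOP2, a meiotic recombination factor, and is no proteasome subunit. It is kept in the counts over the 48 genes tested, which are also given without it where it was called. Of the 49 genes, 48 reached 1 FPKM (fragments scaled to transcript length and to the fragments mapped in the library) in at least 2 libraries and were tested. Psma8, the testis alpha subunit gene, did not, at 0 to 0.366 FPKM. Psmb11, the thymic catalytic subunit gene, passed at 1.05 to 1.51 FPKM and was called in no comparison.

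The proteasome degrades ubiquitinated proteins. Its 20S core is a barrel of 2 outer alpha rings, which gate the entrance, and 2 inner beta rings, in which 3 subunits carry the active sites. In lymphocytes and in cells exposed to interferon gamma, the catalytic subunits PSMB5, PSMB6 and PSMB7 can be replaced during assembly by PSMB8, PSMB9 and PSMB10, which form the immunoproteasome and favour peptides that fit MHC class I. The 19S regulatory particle binds, deubiquitinates, unfolds and threads substrates into the core, whereas the activators of the Psme family open the core without using ATP or ubiquitin. Dedicated chaperones assemble the rings and leave the finished particle, or are degraded by it.

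RNA was sequenced from germinal centre B cells of mouse spleen, which divide and mutate their antigen receptor genes in the dark zone (DZ) and are selected in the light zone (LZ). The 4 groups, of 2 libraries each, were dKO LZ, sKO LZ, dKO DZ and sKO DZ. By their labels, dKO cells were Bach2(f/f) and sKO cells Bach2(+/+). Both genotypes were also Prdm1(f/f), ERT2cre (KI/+) and, as a further knock-in, B1-8hi (KI/+), on C57BL/6. Bach2 and Prdm1 encode transcriptional repressors, Prdm1 (Blimp1) being a factor of plasma cells; the Cre recombinase is active only after tamoxifen, and B1-8hi is a knock-in antigen receptor gene that recognises the hapten NP. All groups carried floxed Prdm1, the Cre and the knock-in, so the genotype comparison concerns Bach2 in cells with floxed Prdm1, and cells with intact Prdm1 are not analysed here. Naive donor B cells had been placed in wild-type CD45.1/CD45.2 hosts, which keep their own B and T cells and were given 3 mg tamoxifen for 3 days and immunized with NP-CGG in alum. On day 10, NP-binding donor cells that were GL7+ and CD38- were sorted from pooled spleens of 5 hosts, as LZ where CD86 was high and CXCR4 low, and as DZ where the reverse held. The labels give neither the ages of the mice nor whether the replicates came from separate pools, so a p-value here reflects library-to-library spread alone, which may be technical.

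FPKM summed to 502214 to 540885 per library, and 10192 to 10250 genes reached 1 FPKM. The read depth is unknown from FPKM; the smallest steps of low values put the DZ libraries at 1.43 times the depth of the LZ libraries, and dKO at 1.05 times sKO in LZ and 0.974 times in DZ. Bach2 transcripts were at 63.6 ± 1.27 FPKM in dKO LZ, against 51.6 ± 2.49 in sKO LZ, and at 95.3 ± 1.25 in dKO DZ, against 75.4 ± 1.08 in sKO DZ (SD, n = 2 each). Gene-level values also count exons that a deletion leaves in place, so they check nothing about the labels. Prdm1 was at 0.980 and 0.967 FPKM in dKO LZ, against 0.0577 and 0.0184 in sKO LZ, and at 0.258 and 0.434 in dKO DZ, against 0.0473 and 0.122 in sKO DZ. It was higher in both dKO libraries of each zone. All 9 germinal centre B cell markers were present, and their summed level was lower in dKO, at 3630 to 3647 FPKM in dKO LZ against 4114 to 4211 in sKO LZ and 3231 to 3259 in dKO DZ against 3617 to 3773 in sKO DZ. S1pr2 went against the sum, at 139.7 and 143 FPKM in dKO LZ against 118 and 109 in sKO LZ and 162 and 164 in dKO DZ against 133 and 140.3 in sKO DZ. Mef2b overlapped between the genotypes, at 184 and 165 FPKM in dKO LZ against 169 and 156 in sKO LZ. In DZ it was at 170 and 158 FPKM in dKO against 164 and 186 in sKO. The 3 light zone markers summed to 429 to 432 FPKM in dKO LZ against 472 to 525 in sKO LZ, and to 127 in both dKO DZ libraries against 154 to 160 in sKO DZ. The 3 dark zone markers summed to 245 to 248.9 FPKM in dKO LZ against 264 to 268 in sKO LZ, and to 390.1 to 399.6 in dKO DZ against 390.6 to 415 in sKO DZ. The 3 dendritic cell markers, of which Flt3 made up nearly all, summed to 13.4 to 14.1 FPKM in dKO LZ against 20.2 to 22.3 in sKO LZ. The 4 plasma cell markers summed to 367 FPKM in both dKO LZ libraries, against 309 and 325 in sKO LZ, and to 459 and 471 in dKO DZ, against 431 and 448 in sKO DZ. Igj, the joining chain gene, made up most of that sum, and in DZ Irf4 was the lower in dKO, at 1.99 and 2.35 FPKM in dKO DZ against 4.05 and 3.01 in sKO DZ. Xbp1 overlapped between the genotypes in DZ, at 69.7 and 70.9 FPKM in dKO DZ against 70.6 and 80.6 in sKO DZ. The 5 T cell markers summed to at most 0.791 FPKM and the 3 NK cell markers to at most 1.70. The 3 erythroid markers summed to 15.8 to 19.7 FPKM in dKO LZ, against 1.58 to 13.2 in sKO LZ. In DZ they summed to 3.34 to 9.20 FPKM in dKO, against 7.23 to 10.4 in sKO. The 7 myeloid markers summed to 20.4 and 141 FPKM in dKO LZ, against 6.42 and 50.1 in sKO LZ, and to at most 2.67 in DZ, so that replicate 2 was the higher library of each LZ group. The part of these markers in the genotype and zone comparisons was not tested. In a bulk library, fewer cells of a type and less RNA per cell cannot be told apart.

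In LZ cells, proteasome genes were broadly higher in dKO than in sKO. Of the 48 genes tested, 33 rose and 0 fell, with a median difference of 0.26 on the log2(FPKM + 1) scale, against 0.02 over all 10610 genes tested. Without Psmc3ip, 32 of 47 rose. Rose and fell mean an adjusted p under 0.05 (limma, 2-sided, Benjamini-Hochberg over all genes tested). Among all genes tested, 18.4% rose and 12.7% fell in this comparison. Both dKO libraries lay above both sKO libraries for 38 of the 48 genes, and below them for 3. Over all genes tested these shares were 36.5% above and 29.3% below. The rises were small: apart from Psmg1 and Psmd7, none was above 0.5. The number of genes that rose was 16 when dKO LZ replicate 1 was left out and 21 when replicate 2 of that group was, 27 when sKO LZ replicate 1 was left out and 24 when replicate 2 was, while 14 of the 33 were called in each of the alternative analyses. Higher values made up 59.05% of all calls as deposited and 45.51% after upper quartile scaling, under which 29 of the 48 genes rose. After quantile normalization 24 rose and 1, Psmb9, fell.

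**Figure D1:**
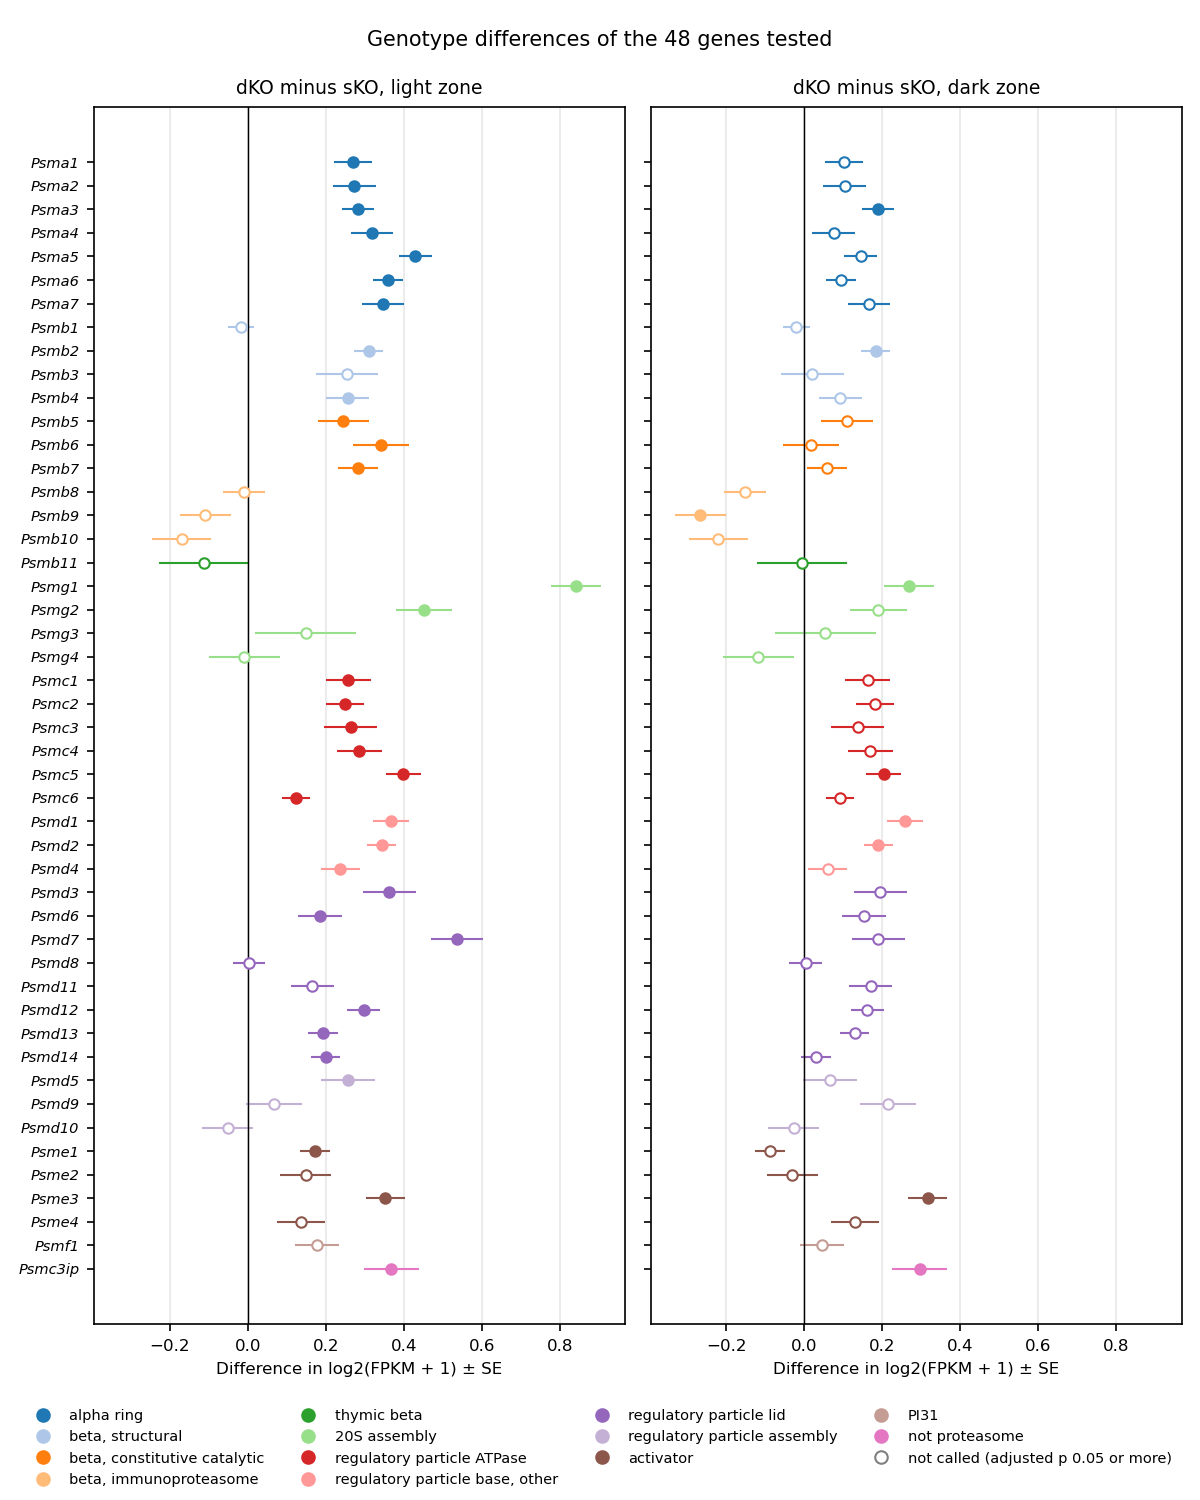
Difference in log2(FPKM + 1) ± SE between dKO and sKO in the light zone (left) and the dark zone (right) for the 48 genes tested, coloured by role, with 2 libraries a group. Filled circles have an adjusted p under 0.05: 33 higher and 0 lower in the light zone, 8 higher and 1 lower in the dark zone, with the 3 immunoproteasome genes left of 0 in both.

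All 7 alpha ring genes rose in dKO LZ, by 0.27 to 0.43. These subunits form the outer rings of the core and its gate, and across the 8 libraries their genes were at 78.9 to 236 FPKM. Psma5 had 112 and 105 FPKM in dKO LZ, against 79.8 and 80.9 FPKM in sKO LZ (0.43 ± 0.042, adjusted p = 0.00151). Psma6 had 180.2 and 174 FPKM in dKO LZ, against 136 and 139 FPKM in sKO LZ (0.36 ± 0.038, adjusted p = 0.00179). Psma7 had 236 and 231 FPKM in dKO LZ, against 187 and 179 FPKM in sKO LZ (0.35 ± 0.054, adjusted p = 0.00521). In each of the 3 genes the 2 libraries of a genotype lay close together and the genotypes did not overlap. The rises of Psma3, Psma4, Psma5, Psma6 and Psma7 were called in each alternative, whereas that of Psma1 was lost without dKO LZ replicate 1 (adjusted p = 0.0594) and that of Psma2 without dKO LZ replicate 2 (0.0750) and after quantile normalization (0.120).

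Of the 4 structural beta ring genes, whose products hold the ring together without cutting, Psmb2 and Psmb4 rose in dKO LZ. Psmb2 had 171 and 174 FPKM in dKO LZ, against 142 and 137 FPKM in sKO LZ (0.31 ± 0.036, adjusted p = 0.00225). Psmb4 had 217 and 213 FPKM in dKO LZ, against 187 and 173 FPKM in sKO LZ (0.26 ± 0.056, adjusted p = 0.0168), and its call was lost without dKO LZ replicate 1 (0.0888), dKO LZ replicate 2 (0.0642) or sKO LZ replicate 2 (0.0659), and after quantile normalization (0.0803). Psmb1, with 190.0 and 194 FPKM in dKO LZ, against 194 and 195 FPKM in sKO LZ (libraries overlapping between the genotypes), did not pass the test (-0.02 ± 0.033, adjusted p = 0.752). Psmb3 had a difference of 0.26 ± 0.080, adjusted p = 0.0526.

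The 3 constitutive catalytic genes rose in dKO LZ, and none of the 3 immunoproteasome genes did. Psmb5 encodes the chymotrypsin-like subunit that cuts after hydrophobic residues. It had 114 and 109 FPKM in dKO LZ, against 94.7 and 92.7 FPKM in sKO LZ (0.25 ± 0.066, adjusted p = 0.0324). Its immunoproteasome counterpart Psmb8 had 292 and 287 FPKM in dKO LZ, against 294 and 288 FPKM in sKO LZ (-0.01 ± 0.054, adjusted p = 0.922). Thus the Psmb5 libraries were separated by genotype and those of Psmb8 were interleaved. Psmb6, the caspase-like subunit gene, had 99.8 and 100.2 FPKM in dKO LZ, against 82.2 and 75.4 FPKM in sKO LZ (0.34 ± 0.072, adjusted p = 0.0150). Its counterpart Psmb9 had 225 and 210.2 FPKM in dKO LZ, against 233 and 235 FPKM in sKO LZ (-0.11 ± 0.065, adjusted p = 0.252), with both dKO libraries the lower. Psmb7, the trypsin-like subunit gene, had 191 and 181 FPKM in dKO LZ, against 156 and 150.3 FPKM in sKO LZ (0.28 ± 0.051, adjusted p = 0.00882). Psmb10, its counterpart, had 65.2 and 70.5 FPKM in dKO LZ, against 75.1 and 77.6 FPKM in sKO LZ (-0.17 ± 0.076, adjusted p = 0.140), again with both dKO libraries the lower.

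These calls differed in how they held. The Psmb7 call was lost without dKO LZ replicate 1 (0.0595). The Psmb6 call was lost without dKO LZ replicate 1 (0.0693), dKO LZ replicate 2 (0.0684) or sKO LZ replicate 2 (0.0665). The Psmb5 call was lost without any 1 of the 4 LZ libraries (0.0752 to 0.151), without either dKO DZ library (0.0512 and 0.0511), after quantile normalization (0.0544) and with no filter on low values (0.0576).

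In DZ cells, Psmb9 was the 1 immunoproteasome gene that fell in dKO; Psmb8 and Psmb10 had negative differences that did not pass the test, and the 3 constitutive catalytic genes did not pass it either. Psmb8 had 272 and 264 FPKM in dKO DZ, against 283 and 314 FPKM in sKO DZ (-0.15 ± 0.054, adjusted p = 0.125). Psmb9 had 192 and 189 FPKM in dKO DZ, against 216 and 244 FPKM in sKO DZ (-0.27 ± 0.065, adjusted p = 0.0479), the sole gene of the 48 that fell in DZ. Psmb10 had 60.7 and 60.5 FPKM in dKO DZ, against 65.6 and 76.4 FPKM in sKO DZ (-0.22 ± 0.076, adjusted p = 0.118). In each of them both dKO DZ libraries lay below both sKO DZ libraries, although the 2 sKO DZ libraries were far apart, replicate 2 being the higher. The Psmb9 call held without sKO DZ replicate 1 and was lost without any other single library (0.0654 to 0.203); without sKO DZ replicate 2 its adjusted p was 0.116. It was also lost with no filter on low values (0.0853), with no intensity trend (0.0712) and with a fit on the DZ libraries alone (0.103). Psmb5 had 116 and 109.7 FPKM in dKO DZ, against 98.5 and 111 FPKM in sKO DZ, Psmb6 86.0 and 86.7 FPKM in dKO DZ, against 79.5 and 91.5 FPKM in sKO DZ and Psmb7 167 and 172 FPKM in dKO DZ, against 156 and 169 FPKM in sKO DZ. The genotypes overlapped for these 3 genes (adjusted p 0.341 to 0.912), sKO DZ replicate 2 again being above replicate 1. In the mean of both zones Psmb9 (-0.19 ± 0.046, adjusted p = 0.0205) and Psmb10 (-0.19 ± 0.054, adjusted p = 0.0313) fell and Psmb8 did not pass the test (-0.08 ± 0.038, adjusted p = 0.147). The Psmb9 call in that mean was lost without dKO LZ replicate 2 (0.0698), sKO LZ replicate 2 (0.0514), dKO DZ replicate 1 (0.0576) or dKO DZ replicate 2 (0.0693). That of Psmb10 was lost without dKO LZ replicate 1 (0.0968), either sKO LZ library (0.0545 and 0.0788) or either dKO DZ library (0.0841 and 0.0861).

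The ratio of an immunoproteasome gene to its constitutive counterpart is taken within a library, so that scaling between libraries cancels. It was lower in dKO for all 3 pairs in both zones, with no overlap of libraries. Separation of 2 libraries from 2 is common for single genes. Both dKO libraries lay above both sKO libraries for 36.5% of all genes tested in LZ and below for 29.3%. In DZ these shares were 32.3% and 26.3%. The share for ratios of other gene pairs was not computed. Psmb8 over Psmb5 was 2.56 and 2.64 in dKO LZ, against 3.10 and 3.11 in sKO LZ, and 2.33 and 2.41 in dKO DZ, against 2.87 and 2.82 in sKO DZ. Psmb9 over Psmb6 was 2.25 and 2.10 in dKO LZ, against 2.84 and 3.12 in sKO LZ, and 2.24 and 2.18 in dKO DZ, against 2.71 and 2.67 in sKO DZ. Psmb10 over Psmb7 was 0.341 and 0.389 in dKO LZ, against 0.482 and 0.516 in sKO LZ, and 0.364 and 0.352 in dKO DZ, against 0.419 and 0.452 in sKO DZ. As a share of the pair, the immunoproteasome form took 72.2 ± 0.462% in dKO LZ and 75.6 ± 0.0419% in sKO LZ for Psmb8, 68.5 ± 1.09% and 74.9 ± 1.26% for Psmb9 and 26.7 ± 1.83% and 33.3 ± 1.07% for Psmb10 in the same groups (SD, n = 2 each). Transcripts of the immunoproteasome form were thus the more abundant of the pair for Psmb8 and Psmb9 in every group, and the less abundant for Psmb10. A ratio within a library shows unequal change of the 2 genes and not which of them moved, and the ratios are given with no test.

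**Figure D2:**
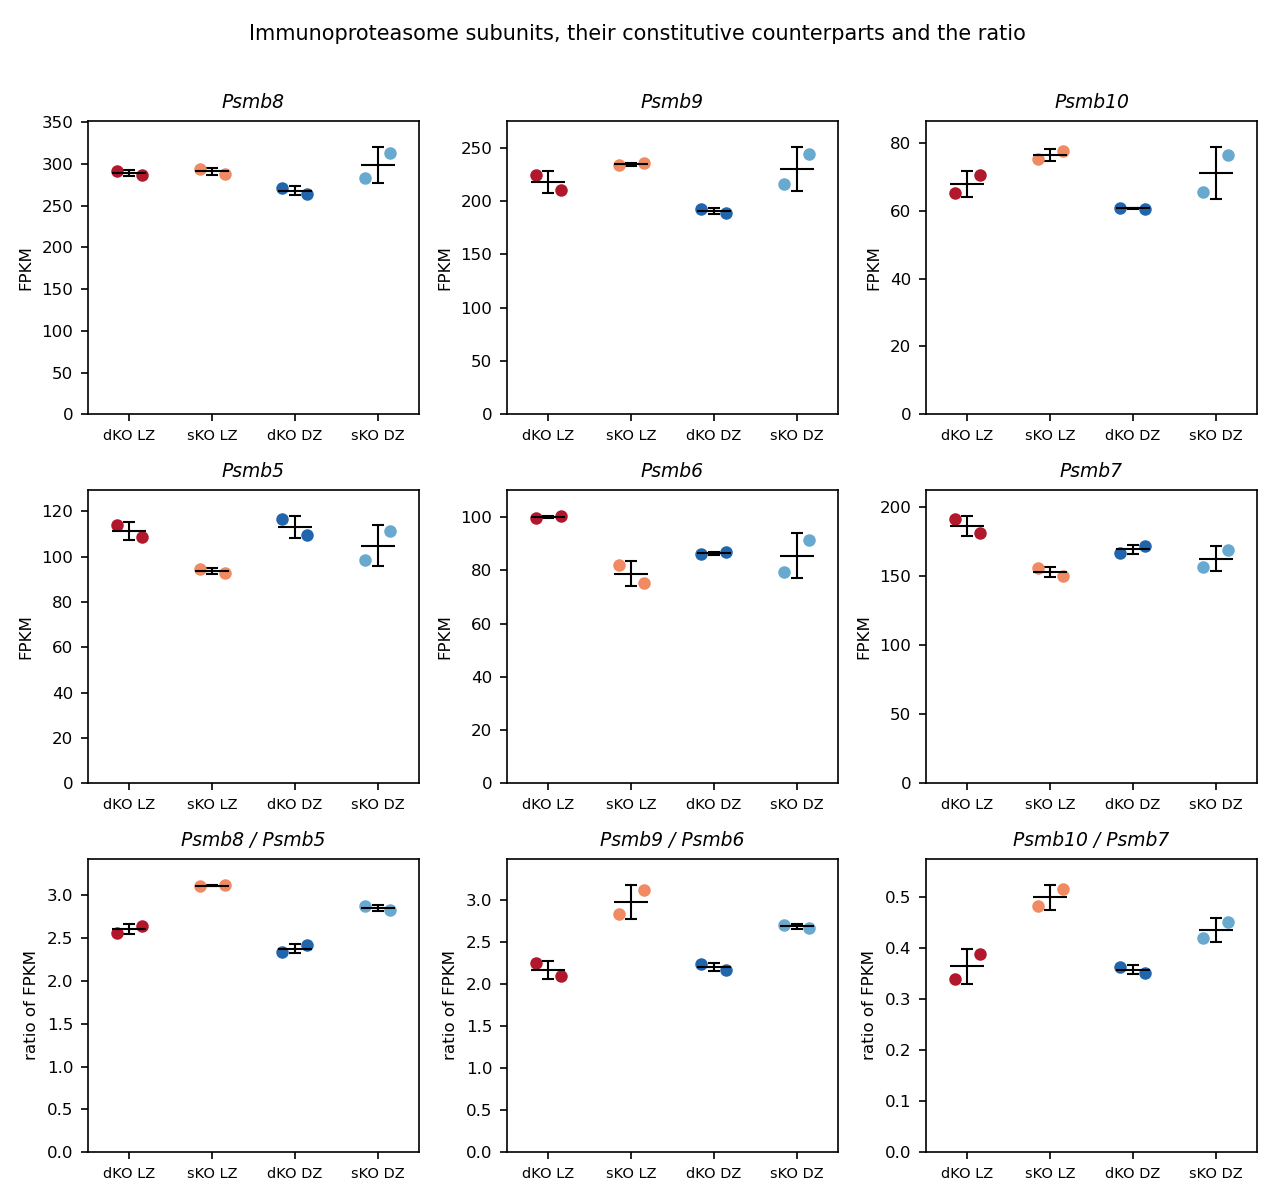
FPKM of the immunoproteasome genes (top), of their constitutive counterparts (middle) and the ratio of each pair (bottom) in the 8 libraries; points are libraries, bars the mean ± SD of 2. In the bottom row both dKO libraries lie below both sKO libraries of the same zone for each of the 3 ratios.

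Promoter windows of 4 of these genes are shown because the constitutive and immunoproteasome forms differed in their genotype values, and that of Psmg1 because it had the largest difference of all members. Each window runs from 250 bases before to 50 bases after the RefSeq start (RefSeq, GRCm38.p6, a later build than the mm9 named in the submitters' processing notes) and is written 5′ to 3′ on the gene's strand. Capitals mark an antioxidant response element (TGACNNNGC) in Psmb5 and Psmb6, a gamma-activated site (TTCNNNGAA) in Psmb8 and Psmg1, and a CCAAT box, read on the opposite strand, in Psmb9.
Psmb5 (chr14:54617946-54618245, minus strand): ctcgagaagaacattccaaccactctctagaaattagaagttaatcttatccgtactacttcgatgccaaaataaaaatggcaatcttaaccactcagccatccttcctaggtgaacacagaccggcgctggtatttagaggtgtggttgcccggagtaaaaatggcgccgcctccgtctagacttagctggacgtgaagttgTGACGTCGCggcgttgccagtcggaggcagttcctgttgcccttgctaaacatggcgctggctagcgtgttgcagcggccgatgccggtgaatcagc
Psmb6 (chr11:70525107-70525406, plus strand): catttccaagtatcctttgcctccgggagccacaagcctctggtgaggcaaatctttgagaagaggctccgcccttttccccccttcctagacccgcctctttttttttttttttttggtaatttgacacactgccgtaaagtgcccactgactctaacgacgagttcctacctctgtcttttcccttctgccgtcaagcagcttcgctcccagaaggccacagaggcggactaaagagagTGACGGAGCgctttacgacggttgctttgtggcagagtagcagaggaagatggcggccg
Psmb8 (chr17:34197945-34198244, plus strand): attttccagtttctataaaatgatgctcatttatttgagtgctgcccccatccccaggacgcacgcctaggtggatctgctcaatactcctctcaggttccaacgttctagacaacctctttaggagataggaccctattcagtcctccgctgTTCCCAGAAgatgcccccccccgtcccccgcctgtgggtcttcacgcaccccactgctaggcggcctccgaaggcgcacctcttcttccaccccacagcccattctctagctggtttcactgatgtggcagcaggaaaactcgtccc
Psmb9 (chr17:34187281-34187580, minus strand): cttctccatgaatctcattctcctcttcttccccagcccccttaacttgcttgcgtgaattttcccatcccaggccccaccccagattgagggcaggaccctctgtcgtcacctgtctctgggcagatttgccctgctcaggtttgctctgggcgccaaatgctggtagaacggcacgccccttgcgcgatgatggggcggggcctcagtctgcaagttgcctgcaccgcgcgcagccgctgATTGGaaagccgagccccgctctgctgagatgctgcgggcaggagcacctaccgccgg
Psmg1 (chr16:95990911-95991210, minus strand): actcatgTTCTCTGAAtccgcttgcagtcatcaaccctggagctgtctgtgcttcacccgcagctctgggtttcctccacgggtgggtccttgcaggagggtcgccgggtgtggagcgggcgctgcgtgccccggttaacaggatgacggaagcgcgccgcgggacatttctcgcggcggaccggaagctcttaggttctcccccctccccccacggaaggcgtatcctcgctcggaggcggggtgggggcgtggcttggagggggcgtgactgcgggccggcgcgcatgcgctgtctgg
Of the 49 genes, 41 matched a RefSeq promoter, in 44 windows, and both strands were searched. The antioxidant element, a site of NRF factors, was in 6 windows (Psmb5, Psmb6, Psmc6, Psmd12, Psmd9 and Psme4), 13.6% against 12.4% of all 32851 windows and 14.7% of the 9424 windows of tested genes. The gamma-activated site was in 3 (Psmb8, Psmd2 and Psmg1), 6.82% against 8.3% and 7% on these backgrounds, and the CCAAT box in 15, 34.1% against 37.4% and 38.9%. The interferon-stimulated element, searched as a pair of GAAA with a gap of 2 bases, was in 5 (Psmb3, Psmd4, Psmd9, Psme1 and Psmg4), 11.4% against 3.44% and 3.16%. The MAF recognition element, which BACH factors bind together with small MAF proteins, was searched as TGCTGA directly followed by GTCA. It was in 0 of the 44 windows and in 0.155% of all windows and 0.0955% of those of tested genes. At so low a share, 0 of 44 says nothing about the members. These letters also hold the antioxidant element, read on the opposite strand. The searches therefore do not tell sites of NRF factors from sites of BACH factors. A match is a run of letters, not a binding site, and a window with no match says only that the letters are not in it.

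In the regulatory particle, all 6 ATPase genes, whose products form the ring that unfolds substrates, rose in dKO LZ. Psmc5 had 99.0 and 98.7 FPKM in dKO LZ, against 77.2 and 72.4 FPKM in sKO LZ (0.40 ± 0.044, adjusted p = 0.00198), the 2 dKO libraries being nearly equal. Psmc4 had 97.1 and 93.6 FPKM in dKO LZ, against 80.5 and 75.6 FPKM in sKO LZ (0.29 ± 0.058, adjusted p = 0.0125). Psmc3 had 103 and 95.2 FPKM in dKO LZ, against 87.1 and 77.6 FPKM in sKO LZ (0.26 ± 0.068, adjusted p = 0.0279). No library of one genotype reached the range of the other in these 3 genes, but the libraries of a genotype were farther apart in Psmc3 than in Psmc5. The Psmc5 call held in each alternative. The Psmc4 call was lost without dKO LZ replicate 1 (0.0743) or sKO LZ replicate 2 (0.0564). The Psmc3 call was lost without dKO LZ replicate 1, dKO LZ replicate 2, sKO LZ replicate 2 or either dKO DZ library. It was also lost after quantile normalization, with no filter on low values and with a fit on the LZ libraries alone. The remaining ATPases, Psmc1, Psmc2 and Psmc6, differed by 0.12 to 0.26; without dKO LZ replicate 1 none of the 3 was called (0.0661 to 0.156). The Psmc1 call was also lost without dKO LZ replicate 2 (0.0549) or sKO LZ replicate 1 (0.0663). That of Psmc6 was lost without either dKO LZ library, either sKO LZ library or either dKO DZ library. It was also lost after upper quartile scaling (0.162), after quantile normalization (0.322), with no intensity trend and with a fit on the LZ libraries alone.

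The 3 other base genes rose as well. Psmd1, a large scaffold subunit, had 54.2 and 54.7 FPKM in dKO LZ, against 41.5 and 42.5 FPKM in sKO LZ (0.37 ± 0.046, adjusted p = 0.00276). Psmd2, the scaffold on which ubiquitin shuttles dock, had 89.2 and 89.9 FPKM in dKO LZ, against 71.1 and 69.6 FPKM in sKO LZ (0.34 ± 0.038, adjusted p = 0.00192). Psmd4, a ubiquitin receptor, had 97.4 and 93.9 FPKM in dKO LZ, against 84.3 and 77.8 FPKM in sKO LZ (0.24 ± 0.050, adjusted p = 0.0146). The Psmd1 and Psmd2 calls held in each alternative, and the Psmd4 call was lost without dKO LZ replicate 1 (0.0860), without sKO LZ replicate 2 (0.0501) and with a fit on the LZ libraries alone (0.0525).

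Of the 8 lid genes, 6 rose. Psmd7, the partner of the deubiquitinase, had 74.1 and 74.6 FPKM in dKO LZ, against 51.6 and 50.3 FPKM in sKO LZ (0.54 ± 0.068, adjusted p = 0.00274). Psmd3, a structural lid subunit, had 56.1 and 55.6 FPKM in dKO LZ, against 46.2 and 40.4 FPKM in sKO LZ (0.36 ± 0.068, adjusted p = 0.00965). Psmd12, a structural lid subunit, had 79.2 and 75.8 FPKM in dKO LZ, against 63.8 and 61.9 FPKM in sKO LZ (0.30 ± 0.042, adjusted p = 0.00389). Psmd7 and Psmd12 were called in each alternative, and Psmd3, whose sKO libraries were uneven, was lost without dKO LZ replicate 1 (0.0544). Psmd14, the deubiquitinase that strips ubiquitin chains from substrates, had 94.1 and 96.2 FPKM in dKO LZ, against 81.0 and 84.5 FPKM in sKO LZ (0.20 ± 0.038, adjusted p = 0.0102; 0.0645 without dKO LZ replicate 2 and 0.104 after quantile normalization). Psmd6 (0.18) and Psmd13 (0.19), both structural, rose least. The Psmd6 call was lost without any 1 of the LZ libraries or either dKO DZ library and after either scaling (0.151 upper quartile, 0.246 quantile). It was also lost with no filter on low values, with no intensity trend and with a fit on the LZ libraries alone. That of Psmd13 was lost without dKO LZ replicate 1 and with a fit on the LZ libraries alone. Psmd8 had 102 and 96.3 FPKM in dKO LZ, against 100.1 and 97.5 FPKM in sKO LZ, with overlapping genotypes (0.00 ± 0.041, adjusted p = 0.964), and Psmd11 did not pass the test (0.17 ± 0.055, adjusted p = 0.0636).

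The assembly chaperones moved unevenly. Psmg1 and Psmg2 encode PAC1 and PAC2, which pair as the scaffold on which the alpha ring forms. Psmg1 had 35.8 and 34.8 FPKM in dKO LZ, against 19.5 and 19.1 FPKM in sKO LZ (0.84 ± 0.064, adjusted p = 0.000918), the largest difference of the 48 genes. Psmg2 had 40.6 and 41.7 FPKM in dKO LZ, against 32.3 and 27.5 FPKM in sKO LZ (0.45 ± 0.073, adjusted p = 0.00596). Both calls held in each alternative. Psmg3 and Psmg4 encode PAC3 and PAC4, the second chaperone pair of the alpha ring. Psmg3 had 26.4 and 32.5 FPKM in dKO LZ, against 27.7 and 25.0 FPKM in sKO LZ (0.15 ± 0.13, adjusted p = 0.424). Psmg4 had 31.4 and 32.5 FPKM in dKO LZ, against 29.7 and 34.8 FPKM in sKO LZ (-0.01 ± 0.091, adjusted p = 0.956). Their libraries overlapped between the genotypes. Among the chaperones of the ATPase ring, Psmd5 rose, with 28.3 and 29.2 FPKM in dKO LZ, against 24.3 and 23.4 FPKM in sKO LZ (0.26 ± 0.069, adjusted p = 0.0320), a call lost without any 1 of the LZ libraries (0.0640 to 0.133) or either dKO DZ library (0.0597 and 0.0598), after upper quartile scaling (0.0545), after quantile normalization (0.0588) and with no filter on low values (0.0544). Psmd9 (0.07 ± 0.072, adjusted p = 0.520) and Psmd10, gankyrin (-0.05 ± 0.066, adjusted p = 0.596), did not pass the test.

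The activators of the core differed by type. Psme3, which forms the nuclear PA28 gamma ring, rose in both zones. It had 94.7 and 91.4 FPKM in dKO LZ, against 73.9 and 71.4 FPKM in sKO LZ (0.35 ± 0.050, adjusted p = 0.00394), and 81.6 and 76.9 FPKM in dKO DZ, against 61.4 and 65.5 FPKM in sKO DZ (0.32 ± 0.050, adjusted p = 0.0145). The genotypes did not overlap in either zone. The LZ call held in each alternative, and the DZ call was lost without dKO DZ replicate 1 (0.0987), dKO DZ replicate 2 (0.0679) or sKO DZ replicate 1 (0.0677). Psme1 and Psme2 encode PA28 alpha and beta, the interferon-inducible pair that caps the immunoproteasome. Psme1 had 283 and 293 FPKM in dKO LZ, against 254 and 256 FPKM in sKO LZ (0.17 ± 0.039, adjusted p = 0.0182), and 201 and 203 FPKM in dKO DZ, against 210.1 and 219.8 FPKM in sKO DZ (-0.09 ± 0.039, adjusted p = 0.203). It was higher in both dKO libraries of LZ and lower in both of DZ, the LZ call being lost without any 1 of the LZ libraries (0.0522 to 0.110), after upper quartile scaling (0.0709) and after quantile normalization (0.197). The difference of its genotype effect between the zones was 0.26 ± 0.055 (adjusted p = 0.321). Psme2 had 229 and 231 FPKM in dKO LZ, against 199.7 and 216 FPKM in sKO LZ (0.15 ± 0.066, adjusted p = 0.134), and 159 and 149 FPKM in dKO DZ, against 149 and 165 FPKM in sKO DZ (-0.03 ± 0.066, adjusted p = 0.819), with overlap in DZ. The RefSeq gene table holds a copy of Psme2, so its reads may be split. How alike the copy is in sequence was not tested. Psme4, the PA200 activator, had 19.9 and 19.6 FPKM in dKO LZ, against 16.9 and 19.0 FPKM in sKO LZ (0.14 ± 0.062, adjusted p = 0.141), and 18.9 and 19.8 FPKM in dKO DZ, against 17.4 and 17.8 FPKM in sKO DZ (0.13 ± 0.062, adjusted p = 0.228). Its differences were positive in both zones and passed the test in neither. Psmf1, the PI31 gene, had 11.2 and 11.1 FPKM in dKO LZ, against 9.56 and 9.88 FPKM in sKO LZ (0.18 ± 0.057, adjusted p = 0.0561).

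**Figure D3:**
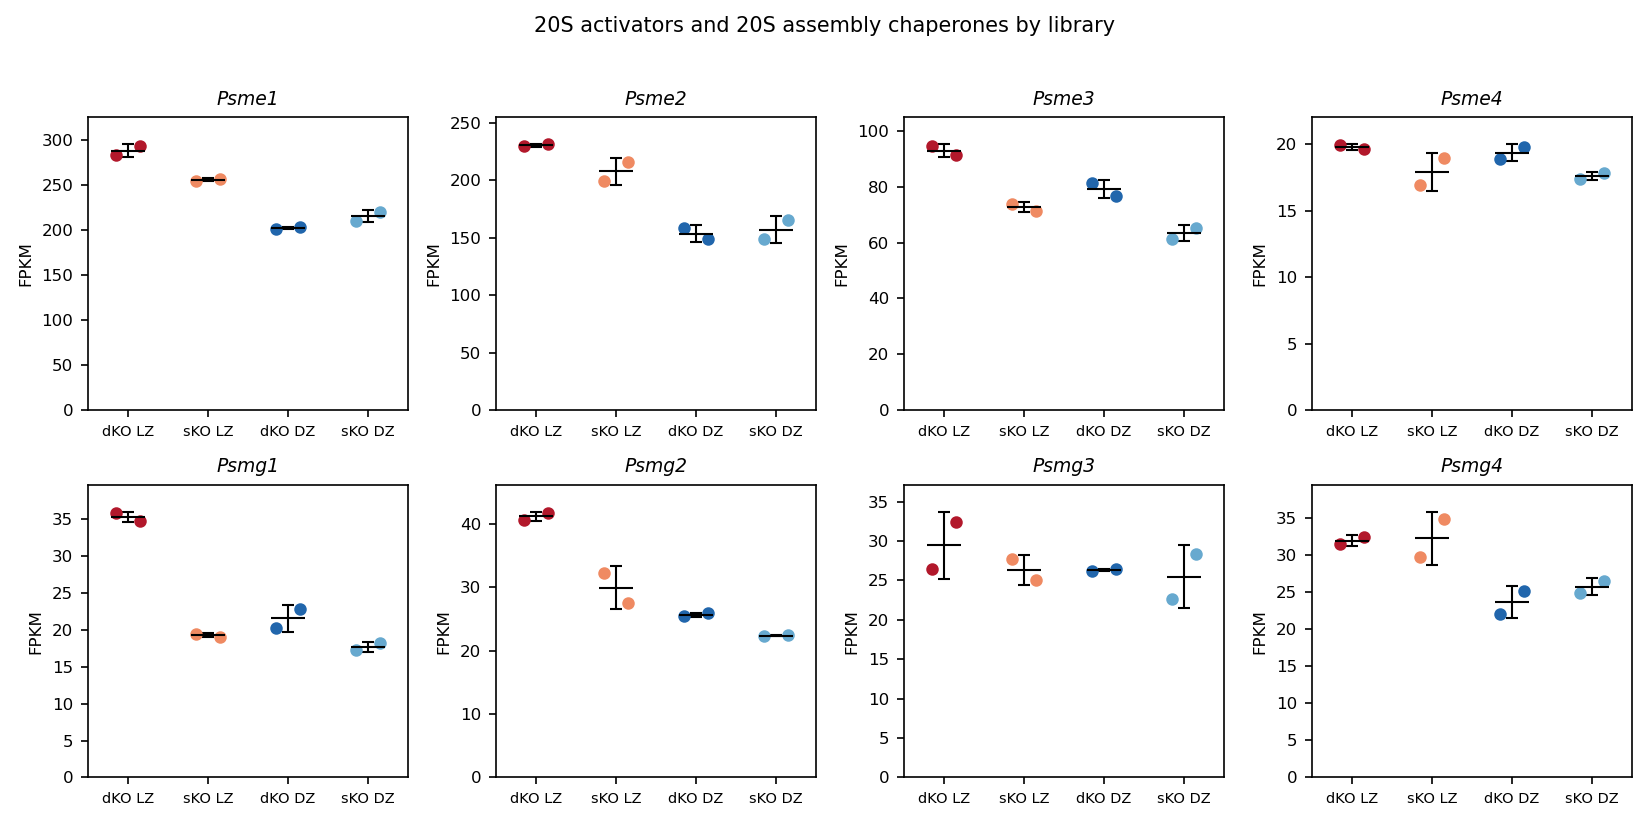
FPKM of the 4 activators (top) and the 4 chaperones of the 20S core (bottom) in the 8 libraries; points are libraries, bars the mean ± SD of 2. Psmg1 stands at 34.8 and 35.8 FPKM in dKO LZ and at 17.2 to 22.9 in the other 6 libraries, and Psme1 and Psme2 are higher in LZ than in DZ for both genotypes.

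Summed over genes, the 14 constitutive core genes took 0.435 ± 0.00553% of all FPKM in dKO LZ and 0.362 ± 0.00400% in sKO LZ (SD, n = 2 each), and 0.417 ± 0.00229% in dKO DZ and 0.384 ± 0.00542% in sKO DZ. The 17 regulatory particle subunits took 0.259 ± 0.00155% in dKO LZ and 0.218 ± 0.00101% in sKO LZ, and 0.280 ± 0.00105% in dKO DZ and 0.249 ± 0.000392% in sKO DZ. The 3 immunoproteasome genes took 0.107 ± 0.00137% in dKO LZ and 0.112 ± 0.00148% in sKO LZ, and 0.103 ± 0.00133% in dKO DZ and 0.116 ± 0.00541% in sKO DZ. Core and regulatory particle sums were thus higher, and immunoproteasome sums lower, in both dKO libraries of each zone. Since FPKM sums differ by library, these shares describe relative transcript amounts and not amounts per cell.

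In DZ cells fewer genes passed the test. Of 48, 8 rose and 1 fell, with a median difference of 0.11 (0.01 over all genes tested), where 6.63% of all genes tested rose and 5.23% fell. Without Psmc3ip, 7 of 47 rose. Both dKO DZ libraries lay above both sKO DZ libraries for 31 genes and below them for 4, the 3 immunoproteasome genes and Psme1, against 32.3% above and 26.3% below over all genes tested. The genes that rose were Psma3, Psmb2, Psmc5, Psmd1, Psmd2, Psme3, Psmg1 and Psmc3ip, by 0.18 to 0.32, and all 8 had also risen in LZ. Rises in both zones were found for 5.81% of all genes tested and falls in both zones for 4.53%, and 0 of the 48 genes fell in both. Psmd1 had 49.6 and 52.5 FPKM in dKO DZ, against 41.3 and 43.7 FPKM in sKO DZ (0.26 ± 0.046, adjusted p = 0.0203). Psmg1 had 20.3 and 22.9 FPKM in dKO DZ, against 17.2 and 18.2 FPKM in sKO DZ (0.27 ± 0.064, adjusted p = 0.0446). Psmc5 had 88.7 and 85.2 FPKM in dKO DZ, against 74.3 and 76.3 FPKM in sKO DZ (0.20 ± 0.044, adjusted p = 0.0353). The genotypes were separated in each, by less than in LZ.

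Psmd2 had 89.2 and 90.6 FPKM in dKO DZ, against 76.8 and 80.5 FPKM in sKO DZ (0.19 ± 0.038, adjusted p = 0.0262). Psmb2 had 153 and 149 FPKM in dKO DZ, against 132 and 134 FPKM in sKO DZ (0.18 ± 0.036, adjusted p = 0.0270). Psma3 had 98.9 and 97.2 FPKM in dKO DZ, against 85.3 and 86.6 FPKM in sKO DZ (0.19 ± 0.042, adjusted p = 0.0361). These 3 genes also had no overlap. Psmc3ip, which is no proteasome gene, had 19.9 and 18.4 FPKM in dKO DZ, against 15.2 and 15.5 FPKM in sKO DZ (0.30 ± 0.071, adjusted p = 0.0451) and rose in LZ too (0.37 ± 0.071, adjusted p = 0.0106; 0.0506 and 0.0563 without dKO LZ replicates 1 and 2). The DZ calls were not stable. None of the 9 was called in each alternative, 0 were called when either dKO DZ library was left out, 1 (Psmb9) when sKO DZ replicate 1 was, 5 when sKO DZ replicate 2 was and 2 when either dKO LZ library was. For the 14 constitutive core genes sKO DZ replicate 2 summed to 2053 FPKM and replicate 1 to 1911, the widest gap of the 4 groups in summed FPKM. As shares of all FPKM these were 0.388% and 0.381%, a gap like that of dKO LZ, at 0.439% and 0.431%.

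In the mean of both zones, which rests on all 8 libraries, 33 of the 48 genes rose, 32 of 47 without Psmc3ip, and 2 fell (median 0.18, against 0.02 over all genes), where 21.7% of all genes tested rose and 15.5% fell. Calls higher in dKO were 58.37% of all calls as deposited and 46.85% after upper quartile scaling, under which 29 of the 48 genes rose and 3 fell. The risers included 12 of the 14 constitutive core genes and 16 of the 17 regulatory particle subunits, Psmb1, Psmb3 and Psmd8 being the exceptions. Of the 35 calls, 21 held in each alternative, and 23 genes were called without dKO DZ replicate 1. The strongest of them were Psmg1 (0.56 ± 0.045, adjusted p = 0.000517), Psmd7 (0.36 ± 0.048, adjusted p = 0.00214) and Psme3 (0.33 ± 0.035, adjusted p = 0.00102), all 3 called in each alternative.

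Whether the genotype effect differed between the zones was tested as an interaction. It was called for 0 of the 48 genes, and for 3 of 10610 genes tested (0.0283%, either direction). At an unadjusted p under 0.05 there were 14 of the 48 genes, all 14 positive, and 1232 genes in all, 759 of them positive. Positive means a higher dKO minus sKO difference in LZ than in DZ, and not that the gene was higher in dKO in both zones. Psmg1 had the smallest adjusted p (0.57 ± 0.091, adjusted p = 0.289). The median over the 48 genes was 0.14, against 0.01 over all genes tested. The larger number of calls in LZ is therefore not shown to be a larger genotype effect for any single gene.

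Between the zones, 3 of the 4 activators were called higher in LZ in dKO and 3 in sKO. Of the 4 core chaperones, 3 were called higher in LZ in dKO and 2 in sKO. In dKO cells, 14 of 48 genes were called higher in LZ than in DZ and 3 lower, where 18.0% of all genes tested were higher and 16.1% lower. In sKO cells 6 were called higher and 9 lower, where 15.2% of all genes tested were higher and 16.1% lower. The LZ and DZ depths differed by the ratio given for the libraries. Psme1 was at 283 and 293 FPKM in dKO LZ against 201 and 203 in dKO DZ (0.51 ± 0.039, adjusted p = 0.000343), and at 254 and 256 in sKO LZ against 210.1 and 219.8 in sKO DZ (0.25 ± 0.039, adjusted p = 0.00509). Psme2 was at 229 and 231 FPKM in dKO LZ against 159 and 149 in dKO DZ (0.58 ± 0.066, adjusted p = 0.00130), and at 199.7 and 216 in sKO LZ against 149 and 165 in sKO DZ (0.40 ± 0.066, adjusted p = 0.00590). Both genes were higher in LZ in each genotype, with no overlap, and these 4 calls held in each alternative. Psme3 was higher too, by 0.23 ± 0.050 in dKO and 0.19 ± 0.050 in sKO. Its dKO call was lost without dKO LZ replicate 1 (0.0833) or dKO DZ replicate 2 (0.0916), and its sKO call without sKO LZ replicate 1 (0.0958), sKO LZ replicate 2 (0.0623) or sKO DZ replicate 1 (0.119).

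Of the core chaperones, Psmg2 was at 40.6 and 41.7 FPKM in dKO LZ against 25.4 and 25.9 in dKO DZ (0.66 ± 0.073, adjusted p = 0.00120), and at 32.3 and 27.5 in sKO LZ against 22.4 and 22.4 in sKO DZ (0.40 ± 0.073, adjusted p = 0.00891; 0.0545 with a fit on the sKO libraries alone). Psmg1 was at 35.8 and 34.8 FPKM in dKO LZ against 20.3 and 22.9 in dKO DZ (0.69 ± 0.064, adjusted p = 0.000641), and at 19.5 and 19.1 in sKO LZ against 17.2 and 18.2 in sKO DZ (0.12 ± 0.064, adjusted p = 0.215). Its zone difference thus passed the test in dKO cells and missed it in sKO cells, and the interaction given for Psmg1 is the test of that contrast. Psmg4 differed by 0.42 ± 0.091 in dKO and 0.31 ± 0.091 in sKO. In dKO that call was lost without either dKO LZ library (0.0537 and 0.0722) or dKO DZ replicate 1 (0.0806). In sKO it was lost without either dKO LZ library (0.0687 and 0.0689), sKO LZ replicate 2 (0.167), sKO DZ replicate 1 (0.163) or sKO DZ replicate 2 (0.0919).

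In the core, Psma3 was higher in LZ in both genotypes, at 128 and 123 FPKM in dKO LZ against 98.9 and 97.2 in dKO DZ (0.35 ± 0.042, adjusted p = 0.00149), and at 100.3 and 106 in sKO LZ against 85.3 and 86.6 in sKO DZ (0.26 ± 0.042, adjusted p = 0.00543). Psma4 was higher in dKO LZ than in dKO DZ (0.40 ± 0.054, adjusted p = 0.00264) and had 0.15 ± 0.054 in sKO (adjusted p = 0.0786). Psma5 (0.30 ± 0.042), Psma6 (0.21 ± 0.038; lost without dKO LZ replicate 1 (0.0520) or dKO DZ replicate 1 (0.0579)) and Psma7 (0.21 ± 0.054; lost without either dKO LZ library (0.122 and 0.0878) or either dKO DZ library (0.131 and 0.0904)) were higher in dKO LZ than in dKO DZ as well. Psmb2 (0.19 ± 0.036) was also called higher in dKO LZ than in dKO DZ, and that call was lost without dKO LZ replicate 2 (0.0621) or dKO DZ replicate 2 (0.0677). The 3 constitutive catalytic and the 3 immunoproteasome genes were called in neither genotype.

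The regulatory particle leaned toward DZ in sKO cells, where 8 of its 17 subunits were called lower in LZ and 0 higher. Of all genes tested, 16.1% were lower and 15.2% higher in sKO. In dKO cells 2 subunits were called higher and 3 lower, near the 18.0% and 16.1% of all genes tested. With a fit on the sKO libraries alone, Psmd4 was the 1 gene of the 48 called lower. The sKO calls of Psmd2, Psmd8 and Psmd14 were lost after quantile normalization, and that of Psmd14 after upper quartile scaling. With no intensity trend those of Psmd8 and Psmd14 were lost. Psmd4 was at 97.4 and 93.9 FPKM in dKO LZ against 114 and 112 in dKO DZ (-0.24 ± 0.050, adjusted p = 0.0131), and at 84.3 and 77.8 in sKO LZ against 106 and 110.5 in sKO DZ (-0.41 ± 0.050, adjusted p = 0.00193). The sKO call held in each alternative, and the dKO call was lost without dKO LZ replicate 2 (0.0787), dKO DZ replicate 1 (0.0802) or dKO DZ replicate 2 (0.0556). Psmd13, a lid subunit, was lower in LZ in dKO (-0.16 ± 0.037, adjusted p = 0.0182) and in sKO (-0.22 ± 0.037, adjusted p = 0.00619), the dKO call being lost without any 1 of the dKO libraries (0.0520 to 0.109) and the sKO call with a fit on the sKO libraries alone (0.0509). Psmc1 (-0.23 ± 0.058), Psmc3 (-0.28 ± 0.068), Psmd2 (-0.16 ± 0.038) and Psmd3 (-0.28 ± 0.068) were lower in sKO LZ than in sKO DZ. Each of these 4 calls was lost without sKO DZ replicate 2 (0.0820 to 0.107) and without sKO LZ replicate 2 (0.0654 to 0.0882). The Psmc1 call was also lost without sKO LZ replicate 1 (0.0875) or either dKO DZ library (0.0514 and 0.0514), and those of Psmc3 (0.0512) and Psmd3 (0.0693) without sKO DZ replicate 1. Psmd8 was lower in LZ in dKO (-0.15 ± 0.041, adjusted p = 0.0331; lost without dKO LZ replicate 2 (0.174) or either dKO DZ library (0.116 and 0.151)) and in sKO (-0.15 ± 0.041, adjusted p = 0.0359; lost without either sKO LZ library (0.0563 and 0.128), either dKO DZ library (0.0709 and 0.0709) or either sKO DZ library (0.0634 and 0.135)). Psmd14 was lower in sKO LZ than in sKO DZ (-0.14 ± 0.038, adjusted p = 0.0372), a call that held in just 1 of the 8 leave-one-out fits, that without sKO LZ replicate 2. The exceptions in dKO were Psmd7 (0.29 ± 0.068) and Psmc5 (0.18 ± 0.044), called higher in LZ with all 4 dKO libraries and not without any 1 of them (0.0597 to 0.123 for Psmc5, 0.0596 to 0.101 for Psmd7). Psmf1 was lower in sKO LZ than in sKO DZ (-0.25 ± 0.057, adjusted p = 0.0198; lost without sKO LZ replicate 1, 0.0650, sKO LZ replicate 2, 0.0531, or sKO DZ replicate 2, 0.0955). The LZ and DZ comparisons of the 2 genotypes share no library, though 1 estimate of the spread, whereas each shares its libraries with the genotype comparisons.

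**Figure D4:**
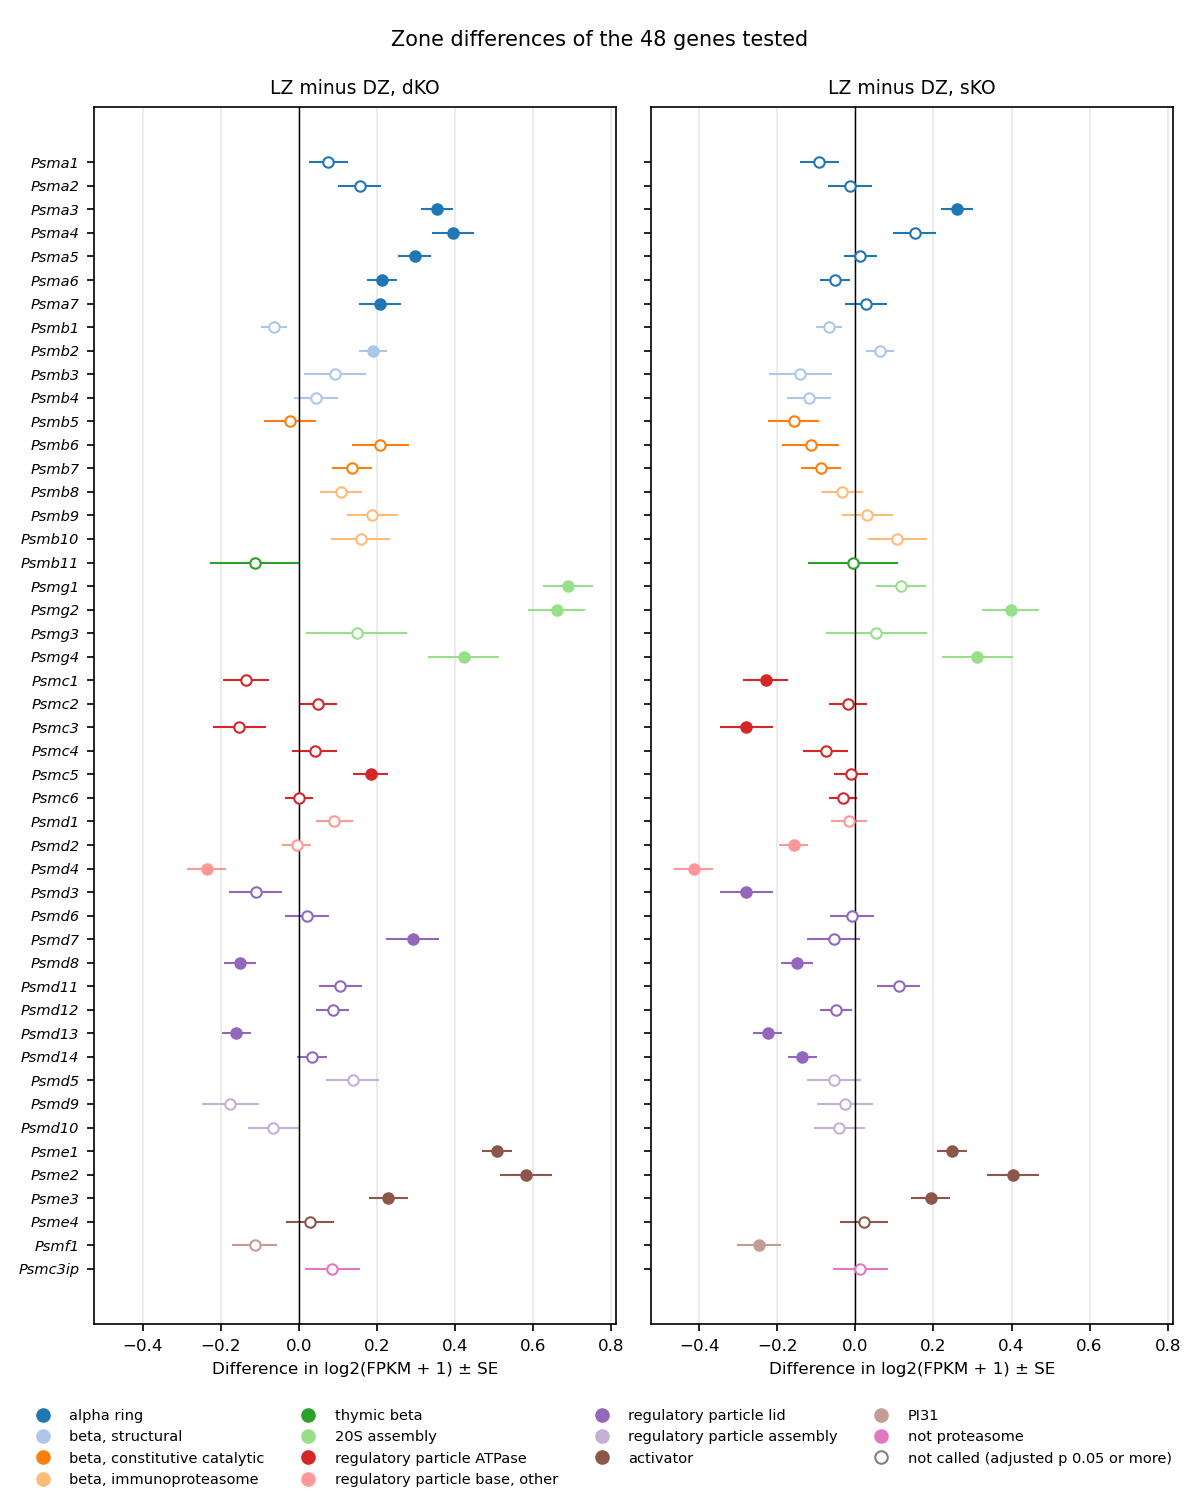
Difference in log2(FPKM + 1) ± SE between LZ and DZ in dKO (left) and sKO (right) cells for the 48 genes tested, coloured by role. Filled circles have an adjusted p under 0.05: 14 higher and 3 lower in dKO, 6 higher and 9 lower in sKO, with Psme1, Psme2, Psme3, Psmg2 and Psmg4 right of 0 and filled in both panels.

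Genes that work with the proteasome were examined in 5 lists. Of 10 proteasome-associated genes, 5 rose and 0 fell in dKO LZ, and 3 rose and 0 fell in dKO DZ. Over all genes tested, 18.4% rose and 12.7% fell in LZ, and 6.63% rose and 5.23% fell in DZ, the background for all 5 lists. AI314180, the gene of ECM29, which tethers core and regulatory particle, had 37.9 and 37.2 FPKM in dKO LZ, against 25.5 and 26.4 FPKM in sKO LZ (0.52 ± 0.042, adjusted p = 0.000997), and 50.1 and 49.1 FPKM in dKO DZ, against 33.3 and 31.7 FPKM in sKO DZ (0.60 ± 0.042, adjusted p = 0.00155). Its libraries were widely separated in both zones, and both calls held in each alternative. Usp14, a deubiquitinase bound to the base, had 24.7 and 23.9 FPKM in dKO LZ, against 18.0 and 19.4 FPKM in sKO LZ (0.36 ± 0.051, adjusted p = 0.00391), and rose in DZ (0.29 ± 0.051, adjusted p = 0.0201). Txnl1, a thioredoxin-like protein of the regulatory particle, had 48.6 and 49.2 FPKM in dKO LZ, against 36.5 and 36.0 FPKM in sKO LZ (0.42 ± 0.050, adjusted p = 0.00227), and rose in DZ (0.21 ± 0.050, adjusted p = 0.0459). The LZ calls of Usp14 and Txnl1 held in each alternative, and the DZ call of Usp14 was lost without either dKO DZ library (0.130 and 0.0989) or either sKO DZ library (0.0866 and 0.0762). That of Txnl1 was lost without either dKO LZ library (0.0856 and 0.0858), either sKO LZ library (0.0585 and 0.0583), either dKO DZ library (0.137 and 0.224) or sKO DZ replicate 1 (0.163). Uchl5, a deubiquitinase of the base, was the fifth gene that rose in LZ (0.26 ± 0.079, adjusted p = 0.0483), a call lost without either dKO LZ library (0.215 and 0.0571), either sKO LZ library (0.133 and 0.118) or either dKO DZ library (0.0583 and 0.0580). The Uchl5 call was also lost after upper quartile scaling (0.0773) and after quantile normalization (0.0715), with no filter (0.0830), with no trend (0.0632) and with a fit on the LZ libraries alone (0.0609). Adrm1, a ubiquitin receptor of the base, had 65.4 and 63.4 FPKM in dKO LZ, against 55.7 and 48.7 FPKM in sKO LZ (0.30 ± 0.070, adjusted p = 0.0199), and did not pass in DZ (0.15 ± 0.070, adjusted p = 0.222). The Adrm1 call was lost without dKO LZ replicate 1, dKO LZ replicate 2 or sKO LZ replicate 2, and with a fit on the LZ libraries alone. Pomp, the chaperone that matures the beta ring, had 229 and 216 FPKM in dKO LZ, against 201 and 195 FPKM in sKO LZ (0.17 ± 0.052, adjusted p = 0.0532).

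Of 14 genes of ubiquitin supply and substrate delivery, 3 rose in each zone and 0 fell, where 18.4% of all genes tested rose in LZ and 6.63% in DZ; the LZ share is close to that background and is no result about the list. Vcp, the segregase that extracts ubiquitinated proteins, had 161 and 164 FPKM in dKO LZ, against 127 and 122 FPKM in sKO LZ (0.38 ± 0.036, adjusted p = 0.00133), and 177 and 175 FPKM in dKO DZ, against 137 and 140.0 FPKM in sKO DZ (0.35 ± 0.036, adjusted p = 0.00531). Both dKO libraries were above both sKO libraries in each zone. The ubiquitin shuttle genes Rad23b (0.36 ± 0.042, adjusted p = 0.00223 in LZ; 0.21 ± 0.042, adjusted p = 0.0268 in DZ) and Ubqln4 (0.43 ± 0.068, adjusted p = 0.00551 in LZ; 0.30 ± 0.068, adjusted p = 0.0396 in DZ) also rose. The 3 LZ calls held in each alternative. The DZ call of Vcp was lost without either dKO DZ library (0.0599 and 0.0510), that of Rad23b without either dKO LZ library (0.0579 and 0.0578), either dKO DZ library (0.167 and 0.110) or either sKO DZ library (0.114 and 0.0700), and that of Ubqln4 without either dKO LZ library (0.0660 and 0.0663), either dKO DZ library (0.163 and 0.177) or either sKO DZ library (0.114 and 0.141).

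Of 7 transcription genes for proteasome subunits, 1 rose in LZ (Nfya, a subunit of the CCAAT-binding factor; 0.16 ± 0.044, adjusted p = 0.0350) and 0 in DZ, and 0 fell in either, where 18.4% and 6.63% of all genes tested rose in these zones. The Nfya call was lost without either dKO LZ library (0.116 and 0.138), sKO LZ replicate 1 (0.113), either dKO DZ library (0.0554 and 0.0554) or either sKO DZ library (0.0534 and 0.0533), after upper quartile scaling (0.171) and after quantile normalization (0.170). Nfe2l1, the factor that raises proteasome transcription when the proteasome is inhibited, had 16.9 and 19.0 FPKM in dKO LZ, against 17.7 and 16.8 FPKM in sKO LZ (0.05 ± 0.070, adjusted p = 0.598), and a difference of 0.09 ± 0.070, adjusted p = 0.490 in DZ. Its LZ libraries overlapped between the genotypes. Nfe2l2, the oxidative stress factor NRF2, had 19.6 and 20.1 FPKM in dKO LZ, against 18.5 and 16.7 FPKM in sKO LZ (0.17 ± 0.066, adjusted p = 0.105), and a difference of 0.15 ± 0.066, adjusted p = 0.201 in DZ.

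In the MHC class I pathway, which the immunoproteasome feeds, 4 of 10 genes rose and 5 fell in dKO LZ, and 1 rose and 5 fell in dKO DZ. Of all genes tested, 18.4% rose and 12.7% fell in LZ, and 6.63% rose and 5.23% fell in DZ. B2m, the light chain of class I molecules, had 838 and 814 FPKM in dKO LZ, against 1038 and 1061 FPKM in sKO LZ (-0.35 ± 0.049, adjusted p = 0.00389), and 645 and 652 FPKM in dKO DZ, against 786 and 848 FPKM in sKO DZ (-0.33 ± 0.049, adjusted p = 0.0119). It was lower in all 4 dKO libraries than in the sKO libraries of their zone. H2-D1, a class I heavy chain, fell in both zones (-0.30 ± 0.043, adjusted p = 0.00394 in LZ; -0.25 ± 0.043, adjusted p = 0.0165 in DZ). H2-K1, Tapbp and the peptide transporter gene Tap1 fell in both zones too, with differences of -0.23 to -0.28 in LZ and -0.22 to -0.29 in DZ. The LZ calls of B2m and H2-D1 held in each alternative, and their DZ calls were lost without dKO DZ replicate 1 (0.0927 and 0.103) or dKO DZ replicate 2 (0.0837 and 0.112). The LZ call of H2-K1 was lost without either dKO LZ library (0.0544 and 0.0553), that of Tap1 without either dKO LZ library (0.0946 and 0.0772) or either sKO LZ library (0.0521 and 0.0733), and that of Tapbp without either dKO LZ library (0.0616 and 0.0818) or either sKO LZ library (0.0531 and 0.0560). In DZ the H2-K1 call was lost without either dKO LZ library (0.0663 and 0.0668), either dKO DZ library (0.0849 and 0.167) or either sKO DZ library (0.0695 and 0.0923), the Tap1 call without either dKO LZ library (0.0704 and 0.0704), either dKO DZ library (0.0675 and 0.158) or either sKO DZ library (0.0817 and 0.125), and the Tapbp call without either dKO LZ library (0.0620 and 0.0621), either dKO DZ library (0.168 and 0.120) or sKO DZ replicate 2 (0.0794). The genes that rose in LZ were Erap1, a peptide-trimming aminopeptidase (0.34 ± 0.066, adjusted p = 0.0118; lost without dKO LZ replicate 1 (0.0707)), and 3 chaperones of the endoplasmic reticulum, Canx (0.38 ± 0.038, adjusted p = 0.00161), Calr (0.31 ± 0.034, adjusted p = 0.00193) and Pdia3 (0.33 ± 0.045, adjusted p = 0.00370). The 3 chaperone calls held in each alternative. Canx rose in DZ as well (0.24 ± 0.038, adjusted p = 0.0156; lost without either dKO DZ library (0.112 and 0.0738) or either sKO DZ library (0.0613 and 0.0639)).

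Of 6 factors of the interferon response, 0 rose and 3 fell in dKO LZ, and 0 rose and 0 fell in dKO DZ. Of all genes tested, 12.7% fell in LZ and 5.23% in DZ. Both dKO DZ libraries lay below both sKO DZ libraries for 5 of the 6, against 26.3% of all genes tested. Irf9, an interferon response factor (-0.38 ± 0.073, adjusted p = 0.0101), and Irf2, a repressor of interferon genes (-0.22 ± 0.041, adjusted p = 0.00940), fell in LZ, and both calls were lost without dKO LZ replicate 2 (0.0565 and 0.0585). Nlrc5, the transactivator of class I genes, had 12.0 and 13.5 FPKM in dKO LZ, against 15.2 and 15.8 FPKM in sKO LZ (-0.27 ± 0.069, adjusted p = 0.0284), and a difference of -0.21 ± 0.069, adjusted p = 0.101 in DZ. Its LZ call was lost without dKO LZ replicate 1 (0.131), either sKO LZ library (0.0593 and 0.107) or either dKO DZ library (0.0523 and 0.0521). Irf1, another activator of the immunoproteasome genes, had 31.3 and 31.0 FPKM in dKO LZ, against 32.2 and 29.3 FPKM in sKO LZ (0.02 ± 0.075, adjusted p = 0.886), with overlapping libraries.

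**Figure D5:**
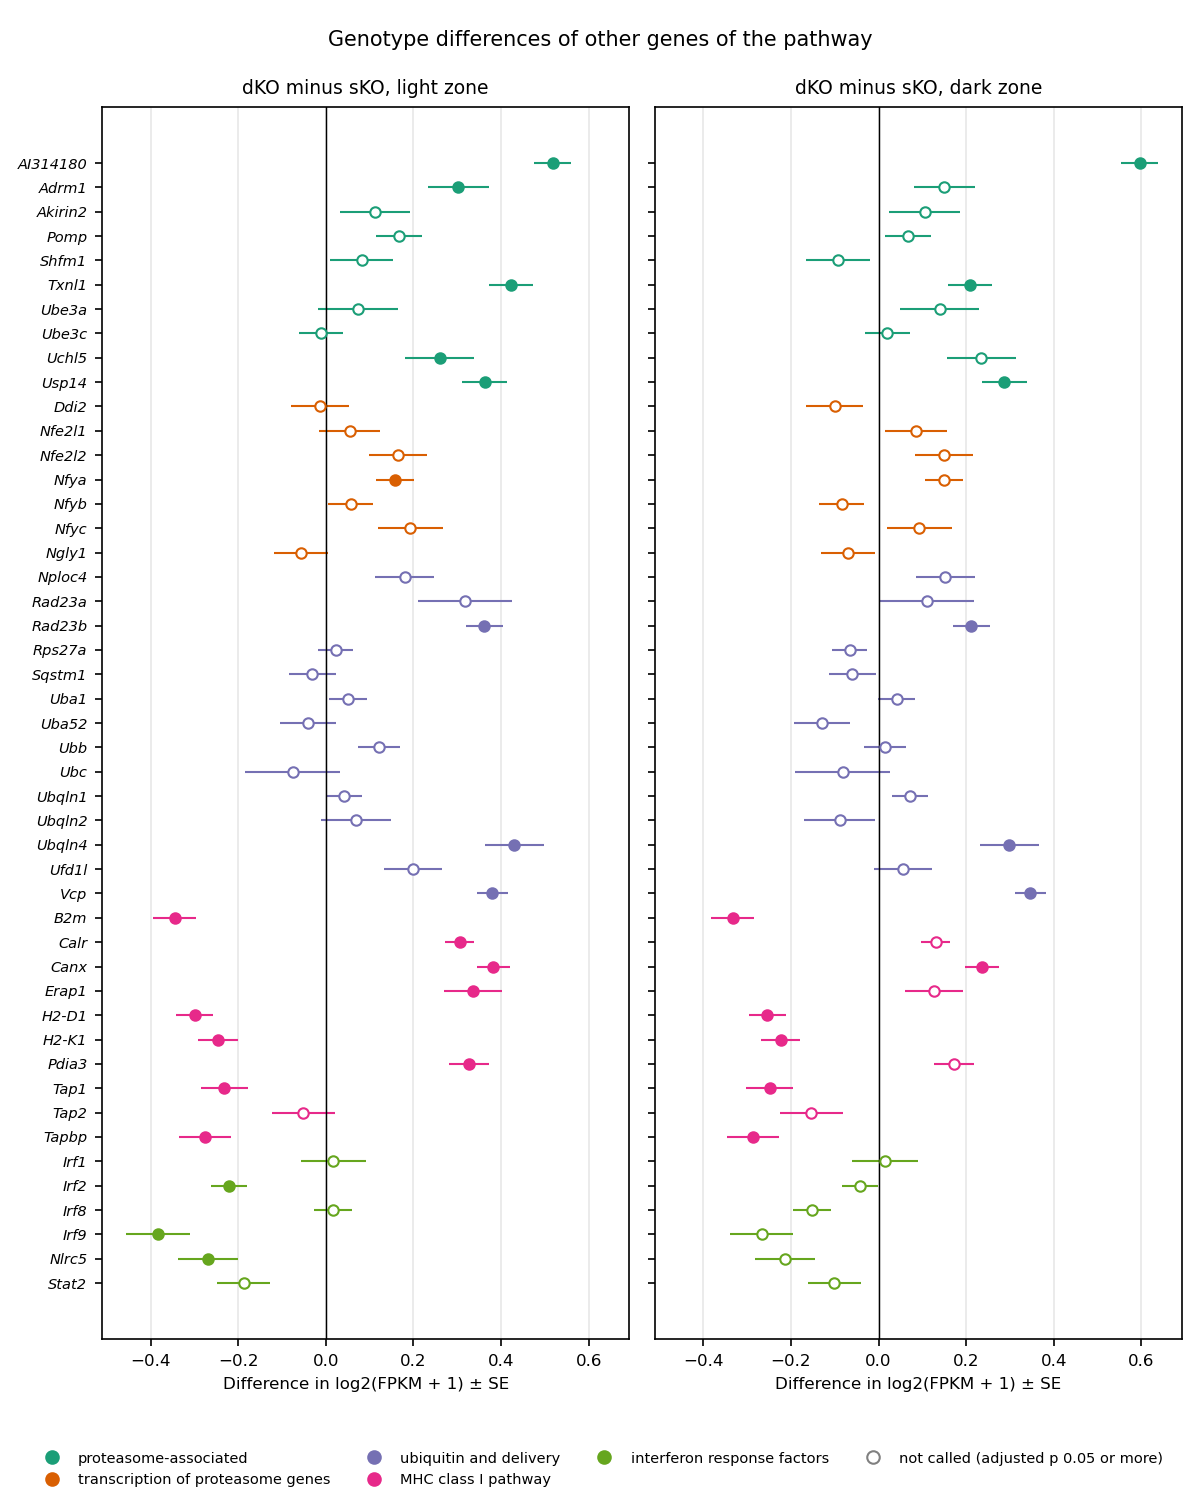
Difference in log2(FPKM + 1) ± SE between dKO and sKO in the light zone (left) and the dark zone (right) for 47 genes in 5 lists that work with the proteasome. Filled circles have an adjusted p under 0.05; AI314180, Vcp and Usp14 lie right of 0 and B2m, H2-D1 and Tap1 left of 0 in both zones.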

How the data were processed

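Libraries of sorted germinal centre B cells came from TRIzol-extracted RNA and a NEBNext Ultra kit, per the labels' protocols. Strand is not stated there, so reads of overlapping or antisense genes cannot be told apart, and proteasome genes with retrocopies may lose or gain reads. The authors deposited 1 table of FPKM values, per the file headers, and 0 of its columns lacked a sample. The submitters' processing notes name TopHat2 2.0.8, Cufflinks 2.1.1 and mm9, and give neither options nor an annotation. FPKM are not counts, so depth is unknown and no counting interval is given.

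Values were taken as log2(FPKM + 1), which understates changes of low genes, for the 10610 genes that reached 1 FPKM in 2 or more libraries. limma 3.58.1 in R 4.3.3 was fitted to the 4 group means of all 8 libraries with an intensity trend (4 residual and 2.46 prior degrees of freedom), 2-sided; p-values were adjusted by Benjamini-Hochberg per contrast, and 0.05 was the threshold. The script was tested on simulated data. Relative depth is the ratio that the most genes at 0.001 to 0.1 FPKM share between libraries.

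The members and lists were chosen with earlier results of these data known. Catalytic pairs, activators and 6 regulators were named in any case, 1 further item not being reported here; others were named by the largest change among called genes whose libraries do not overlap, at most 3 a role in a genotype contrast and 2 in a zone contrast, or by the smallest p in the other lists, and further genes that complete a count of a role were named after their values were seen. Each result was recomputed with each library left out, with only the libraries compared, with a replicate block, with no trend, and with other pseudocounts, filters and scalings. Promoters came from RefSeq (GRCm38.p6).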

Additional observations from a re-analysis of the deposited data

How the results depend on the processing

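Counts of called genes among the 48 in the LZ genotype comparison (33) were 16 to 34 with 1 library left out, and 25 to 35 under the other alternatives. In DZ (9) they were 0 to 9 with 1 library left out, 3 with the replicate block, 2 with no intensity trend and 0 with only the libraries of the groups compared. In the mean of both zones (35) they were 23 to 36 with 1 library left out. Between zones they were 9 to 20 in dKO (17) and 7 to 13 in sKO (15) with 1 library left out, and 4 in sKO with only the libraries compared. The interaction gave 0 in each alternative. The cause of these shifts was not tested; leaving a library out, or using only those compared, also leaves fewer samples to estimate the spread, and where a group has 1 library left it is assumed to vary like the others. The settings listed beside a call are not always complete. A fit on the libraries compared alone also lost the LZ calls of Nfya, Nlrc5 and Erap1. It lost the DZ calls of B2m, H2-D1, H2-K1, Tap1, Tapbp, Canx, Txnl1 and Rad23b, and the sKO zone calls of Psme3, Psmg4 and Psmf1. With no intensity trend the LZ call of Nfya and the DZ calls of H2-K1, Tap1, Txnl1, Rad23b and Ubqln4 were lost. So were the zone calls of Psmg4 in sKO and Psmd8 in dKO. For Rps27a, a ubiquitin fusion gene, the difference of LZ from DZ turned to -0.01122 in dKO and -0.008391 in sKO after quantile normalization. With no filter on low values the DZ calls of Tap1, Tapbp, Txnl1 and Ubqln4 were lost. So were the sKO zone call of Psmg4 and the Psmb10 call in the mean of both zones. The Txnl1 call in DZ was also lost after upper quartile scaling. For the 3 pair ratios the genotypes did not overlap after quantile normalization either.

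The replicate numbers were not shown to pair the libraries: the correlations of same-numbered deviations between groups were -0.108 to 0.124, and the labels do not say what a number marks. With the replicate block, calls were 31 in LZ, 3 in DZ, 33 in the mean of both zones, 17 between zones in dKO and 13 in sKO; the LZ calls of Psmb5 (adjusted p = 0.0561) and Psmc6 (0.0704) and the DZ call of Psmb9 (0.0824) were among those lost, and so was the LZ call of Uchl5 (0.0726), which is not one of the 48. Differences of low genes, such as Psmb11 at 1.05 to 1.51 FPKM, are limited by depth.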

Other observations

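Subunits of 1 ring are needed in equal numbers, but their transcripts were not equally abundant. The highest alpha ring gene had 2.10 to 2.35 times the FPKM of the lowest across the 8 libraries, the highest constitutive beta ring gene 2.12 to 2.58 times, the highest ATPase 1.35 to 1.62 times and the highest lid gene 1.73 to 2.41 times. The ATPases were thus the most even of these 4 sets in every library. In the beta ring, Psmb5, Psmb6 and Psmb7 share their positions with Psmb8, Psmb9 and Psmb10. The lowest constitutive beta ring gene was Psmb6 in every library. The beta ring spread thus sets whole positions against parts of positions, and does not show unequal supply for that ring. The 4 core chaperones of the Psmg family, at 17.2 to 41.7 FPKM, stood below the 7 alpha ring genes, at 78.9 to 236 FPKM, in every library; Pomp, the chaperone of the beta ring, was at 190.0 to 229 FPKM.

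The 49 genes lie on 16 chromosomes in the RefSeq gene table (GRCm38.p6), with at most 9 on any chromosome (chromosome 11). Psmb9 and Psmb8 flank the transporter gene Tap1 on chromosome 17, and Tap2 is the next gene after Psmb8, so that these genes of peptide supply to MHC class I are neighbours. Of these genes, Tap1 was called lower in dKO in both zones, Psmb9 in DZ, and Psmb8 and Tap2 in neither. Tap2 had 71.4 and 71.5 FPKM in dKO LZ, against 79.6 and 69.0 FPKM in sKO LZ, with overlapping genotypes. In DZ it had 77.0 and 71.2 FPKM in dKO, against 82.2 and 82.7 FPKM in sKO. Both dKO DZ libraries thus lay below both sKO DZ libraries, as for 26.3% of all genes tested. Psmb5 and the thymic gene Psmb11 are neighbours on chromosome 14, where Psmb5 was at 92.7 to 116 FPKM and Psmb11 at 1.05 to 1.51 FPKM.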
